A study of Mus musculus with 6 samples.

Results

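Adhesion G protein-coupled receptors were followed in 6 bulk RNA-seq libraries of mouse endothelial lines. The members were the genes whose symbol is Adgr followed by a subfamily letter from a to v and a number, and 26 of the 24411 genes in the deposited table fitted that rule. They fall into 8 subfamilies (A, B, D, E, F, G, L and V). Celsr1, Celsr2 and Celsr3, the subfamily C receptors, carry another symbol and were treated as related genes. UV2, which the labels also write UV♀2, is an endothelial line of strain (BALB/c x C57BL/6)F1, and bEnd.3 is a brain endothelial line of strain BALB/c that was immortalised with polyomavirus middle T antigen. Each line gave 3 libraries from confluent cells held for 3 days without serum. Whether libraries were grown as separate cultures is not said in the labels, so the spread behind the p-values may be technical. For UV2 the tissue and the way it was immortalised were not given in the sources used here.

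Receptors of this family have a long extracellular region built from adhesion domains, followed by a GAIN domain that in many members cuts itself at a conserved site, and a bundle of membrane-spanning helices. When the extracellular part is pulled away by a ligand on the matrix or on another cell, the exposed stretch behind the cut acts as a tethered agonist and the receptor signals through heterotrimeric G proteins. In blood vessels the best known members are Adgrl4 (also called ELTD1), a receptor of angiogenic endothelium, Adgrf5 (GPR116), which is found in endothelium and in the surfactant-producing cells of the lung, and Adgra2 (GPR124), which recognises Wnt7 together with Reck during brain angiogenesis.

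Total expected counts were 21306448 to 26769141 in UV2 and 21944526 to 28748120 in bEnd.3 after rounding. Levels are CPM, counts scaled to library size with TMM factors. A positive log2 fold change means a higher level in UV2, and most are given with a standard error (SE). The SE was worked back from edgeR's test, as the size of the log2 fold change over the square root of the F statistic. Adjusted p-values come from edgeR's quasi-likelihood fit on all 12720 genes that passed the low-count filter, with Benjamini-Hochberg adjustment over all of them, and a gene was called under 0.05. The endothelial markers Pecam1 and Cdh5 averaged 2166 and 4039 CPM in UV2 and 1951 and 3958 CPM in bEnd.3, and neither was called. Of 10 endothelial markers, all tested, 1 was higher in UV2, 4 were lower and 5 were not called. The higher marker was Tie1, at 2210 CPM in UV2 and 1198 CPM in bEnd.3. The lower markers were Emcn, Eng, Egfl7 and Erg. They had 281, 281, 840 and 286 CPM in UV2 and 780, 455, 1337 and 363 CPM in bEnd.3. Markers of other cell types were mostly near 0, and those that were called were all higher in UV2. The 10 macrophage and leukocyte markers summed to 611 to 632 CPM in UV2 and 91.7 to 161 CPM in bEnd.3, which came mainly from Lyz2, at 330.3 CPM in UV2 and 1.27 CPM in bEnd.3, and Cd68, at 285 CPM in UV2 and 116 CPM in bEnd.3. The pan-leukocyte gene Ptprc had no count in UV2 and 0.0136 CPM in bEnd.3, and 7 of the 10 stayed under 1 CPM in every library. Of the 4 tested, Lyz2, Cd68 and Cd14 were higher in UV2 and Csf1r was not called. Cd14 had 1.58 CPM in UV2 and 0.311 CPM in bEnd.3. The sums of the other lists were 3.74 to 6.38 CPM in UV2 and 0.773 to 1.09 CPM in bEnd.3 for pericytes and smooth muscle, and 7.90 to 16.4 CPM in UV2 and 1.57 to 2.85 CPM in bEnd.3 for fibroblasts. Neurons and glia summed to 3.15 to 3.84 CPM in UV2 and 0.314 to 0.713 CPM in bEnd.3, and epithelial markers to under 1 CPM in every library of both lines. The pericyte, fibroblast and neuron lists had 1 tested gene each, and all were higher in UV2. Pdgfrb had 4.36 CPM in UV2 and 0.287 CPM in bEnd.3, and Pdgfra had 11.0 CPM in UV2 and 2.07 CPM in bEnd.3. Tubb3 had 3.21 CPM in UV2 and 0.0525 CPM in bEnd.3. Cd14, Pdgfrb and Tubb3 passed the filter through UV2, so that they differ follows in part from having been tested. The part of these markers in the results was not tested.

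Of the 26 receptor genes, 13 reached a mean of 1 CPM in at least 1 of the lines, and these same 13 passed the low-count filter and were tested. In UV2 8 of them were higher and 4 lower, and 1, Adgra2, did not pass. Among all tested genes 33.9% were higher and 33.3% lower in UV2, or 67.1% called in either direction, so most genes differ between these lines. By more than 2-fold (edgeR's glmTreat) 3 receptors were higher and 3 lower, where 10.6% of all tested genes were higher and 8.81% lower, or 19.4% together. For 10 of the 13 the values of UV2 and bEnd.3 did not overlap, against 73.2% of all tested genes. Adgrg2, Adgrf1, Adgrl3 and Adgrg6 passed the filter through the line where they are high, so that they differ follows in part from having been tested. All of them are among the receptors counted as beyond 2-fold and as not overlapping. The median log2 fold change of the 13 was 0.46, and over all tested genes it was -0.01. Summed over the 26 genes, the family made up 3955 ± 75.5 CPM in UV2 and 2884 ± 296 CPM in bEnd.3 (SD, n = 3 each).

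**Figure D1:**
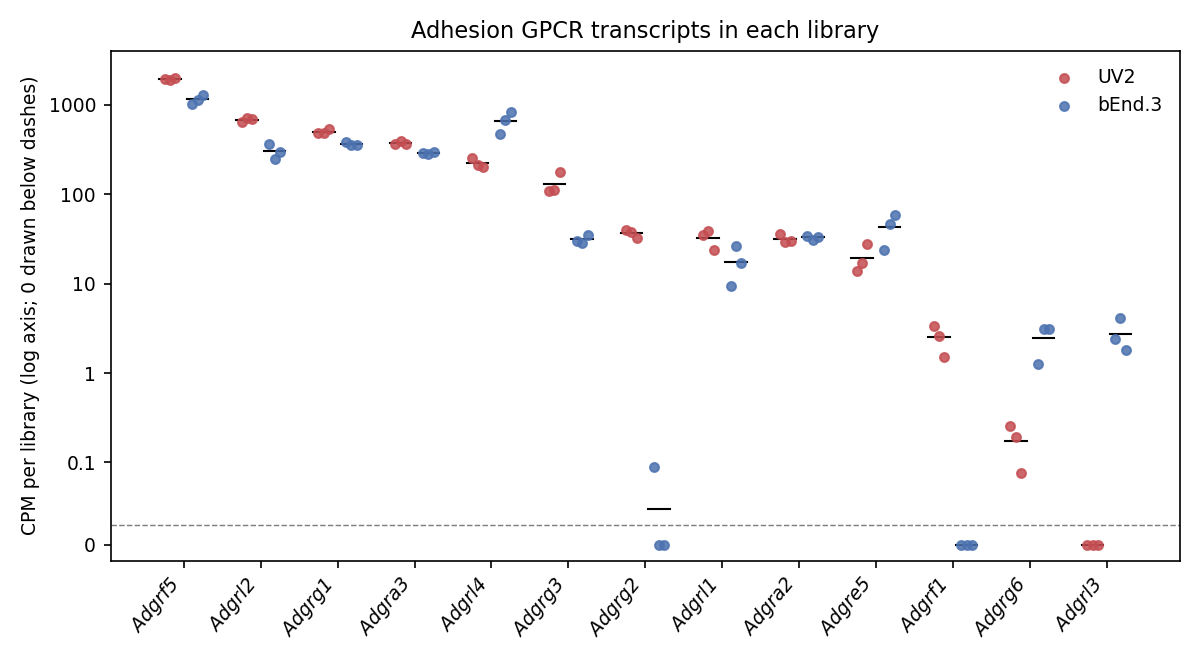
CPM of the 13 tested receptor genes, on a log axis with 0 drawn below the dashed line. Points are libraries (UV2 left, bEnd.3 right) and black bars the means of n = 3. Adgrg2, Adgrf1, Adgrg6 and Adgrl3 are near 0 or at 0 in a line, and of the genes well above 0 in both lines, Adgrl4 and Adgre5 have clearly lower means in UV2.

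The most abundant receptor by CPM in both lines was Adgrf5 (chromosome 17, 43360451 to 43459557, build mm10, a protein-coding gene like all members). It stood at 1941, 1873 and 1964 CPM in UV2 replicates 1, 2 and 3, against 1019.6, 1119 and 1289 CPM in bEnd.3. Every UV2 library lay above every bEnd.3 library. The means were 1926 ± 47.0 CPM in UV2 and 1142 ± 136 CPM in bEnd.3 (SD, n = 3 each), a log2 fold change of 0.75 (SE 0.10, adjusted p = 0.000281), so the gene rose by less than 2-fold. In bulk libraries fewer expressing cells and less RNA per cell cannot be told apart, here and for every gene below.

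Adgrl4, the angiogenic receptor of subfamily L (chromosome 3, 151437887 to 151545086), moved the other way. It had 252, 212 and 200.4 CPM in UV2, against 469, 679.6 and 827 CPM in bEnd.3. The groups did not overlap, and the bEnd.3 libraries were spread widely, with replicate 1 the lowest. The means were 221 ± 26.9 CPM in UV2 and 659 ± 180.1 CPM in bEnd.3 (SD, n = 3 each), and the gene fell (log2 fold change -1.57, SE 0.20, adjusted p = 0.000248). Its fall passed the test for more than 2-fold as well (adjusted p = 0.0139 by glmTreat).

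Because longer transcripts give more reads, levels of different receptors were compared per kb of coding sequence (longest coding sequence in GENCODE vM21). Coding sequence is 4044 of 8535 transcript bases for Adgrf5 and 3930 of 4480 for Adgra3, so comparisons depend on the length chosen. On the coding scale Adgrf5 led in UV2 with 476 ± 11.6 CPM per kb, followed by Adgrg1 with 243 ± 15.1 and Adgrl2 with 152 ± 8.32 CPM per kb (SD, n = 3). Adgrl4, Adgra3 and Adgrg3 came next in UV2, at 99.8 ± 12.1, 95.4 ± 4.45 and 80.6 ± 23.1 CPM per kb, and neighbours among these overlapped between libraries. In bEnd.3 Adgrl4 and Adgrf5 stood together at the top, with 297 ± 81.3 and 283 ± 33.8 CPM per kb, and their ranges overlapped. Adgrg1 followed in bEnd.3 with 177 ± 7.52 CPM per kb, then Adgra3 with 73.2 ± 1.12 and Adgrl2 with 67.4 ± 12.7 CPM per kb, which overlapped. The ratio of Adgrf5 to Adgrl4 per kb was 4.23, 4.86 and 5.37 in the UV2 libraries, against 1.19, 0.902 and 0.854 in the bEnd.3 libraries. By plain CPM Adgrf5 was first and Adgrl4 second in bEnd.3, and per kb of the whole transcript Adgrl4 was first as it was per coding kb. In UV2, per kb of the whole transcript, Adgra3 at 83.7 ± 3.90 CPM per kb came before Adgrl4 at 53.9 ± 6.55 CPM per kb.

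**Figure D2:**
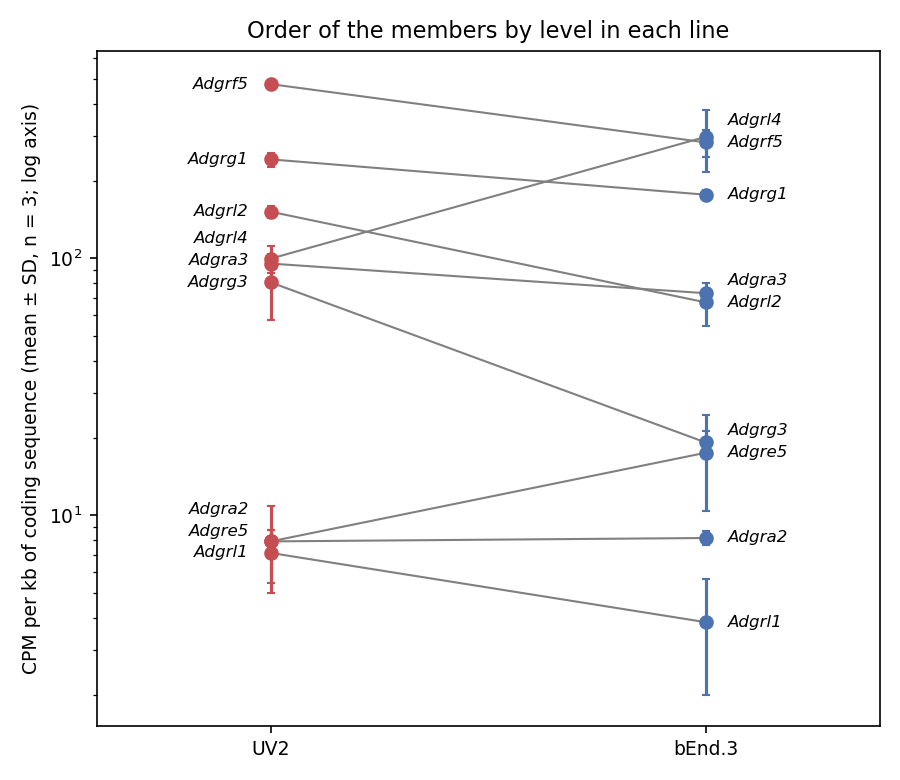
Level of 9 receptor genes in CPM per kb of coding sequence on a log axis (points are means, bars SD, n = 3), UV2 left and bEnd.3 right, with lines joining each gene. The line of Adgrl4 crosses those of Adgrf5, Adgrg1 and Adgrl2: Adgrl4 stood at 99.8 CPM per kb in UV2 and at 297 in bEnd.3. Genes near 0 in a line (Adgrg2, Adgrf1, Adgrl3 and Adgrg6) are left out.

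As a share of the family's summed level per kb, Adgrf5 took 39.6% to 41.1% in UV2 libraries and 29.5% to 30.01% in bEnd.3 libraries. Adgrl4 took 7.38% to 9.71% in UV2 and 25.1% to 35.1% in bEnd.3. Adgrg1 was more even, at 20.1% to 21.2% in UV2 and 16.2% to 22.0% in bEnd.3. These shares depend on the scale. By plain CPM Adgrf5 took 48.0% to 49.5% in UV2 and 38.9% to 40.2% in bEnd.3. On the plain scale Adgrl4 took 4.96% to 6.42% in UV2 and 17.9% to 25.8% in bEnd.3, and Adgrg1 12.3% to 13.3% in UV2 and 11.0% to 14.6% in bEnd.3.

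**Figure D3:**
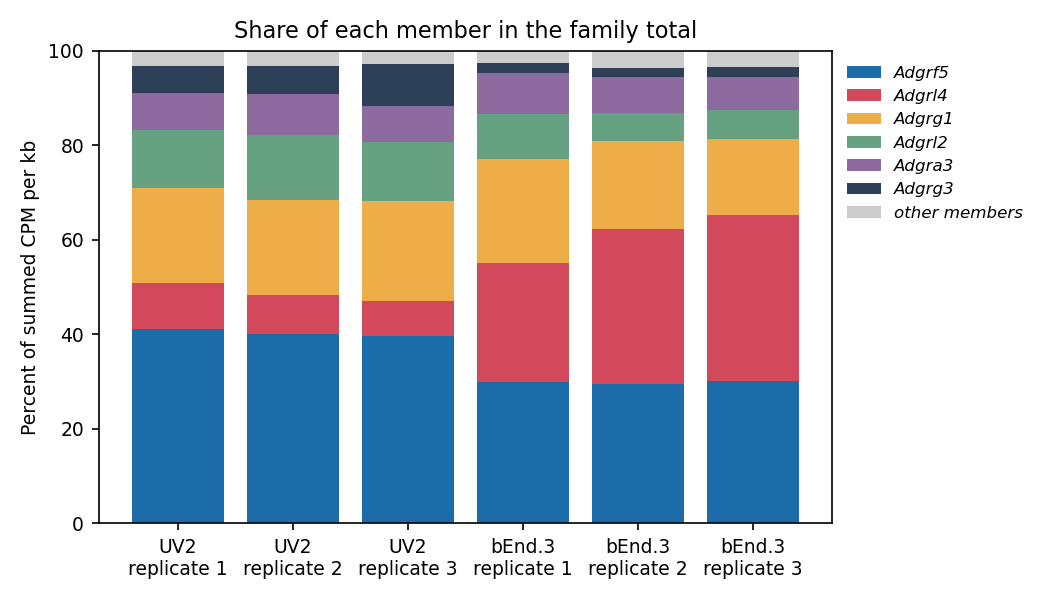
Percent of the summed CPM per kb of coding sequence of all 26 receptor genes taken by each of 6 genes, with all others in grey. Each bar is a library, UV2 left and bEnd.3 right. The band of Adgrl4 is 7.38% to 9.71% in UV2 and 25.1% to 35.1% in bEnd.3.

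The latrophilins Adgrl1, Adgrl2 and Adgrl3, adhesion receptors of subfamily L that bind teneurins and FLRT proteins, went in different directions. Adgrl2 (chromosome 3, 148815583 to 148990555) had 636, 709 and 687 CPM in UV2, against 361, 248 and 292 CPM in bEnd.3. All UV2 libraries were above all bEnd.3 libraries, and the gene rose by 1.17 on the log2 scale (SE 0.13, adjusted p = 0.000144), though the test for more than 2-fold was not passed (adjusted p = 0.169 by glmTreat). Adgrl1 (chromosome 8, 83900105 to 83941954) had 35.3, 38.2 and 23.9 CPM in UV2, against 9.33, 26.1 and 17.0 CPM in bEnd.3. UV2 replicate 3 lay below bEnd.3 replicate 2, so the groups overlapped. Adgrl1 was called higher (log2 fold change 0.89, SE 0.34, adjusted p = 0.0475), close to the threshold. The call was lost with total-count scaling (adjusted p = 0.0635) and without UV2 replicate 1 (0.111), UV2 replicate 2 (0.137), bEnd.3 replicate 1 (0.0628, with a log2 fold change of 0.59) or bEnd.3 replicate 3 (0.110), in a range of 0.00736 to 0.137. Of its exon bases, 15.6% are shared with predicted genes on the opposite strand, so its level is uncertain. Adgrl3 (chromosome 5, 81020138 to 81825133) was low, and it is taken up with the genes near 0 in a line.

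In subfamily G, Adgrg1 and Adgrg3 were both higher in UV2. Adgrg1 (GPR56; chromosome 8, 94974751 to 95014217), a receptor for collagen III that is known from cortical development, had 485, 479 and 536 CPM in UV2, against 382, 357 and 354 CPM in bEnd.3. The groups did not overlap, and the difference was small (log2 fold change 0.46, SE 0.07, adjusted p = 0.000875). Adgrg3 (GPR97; chromosome 8, 95017692 to 95045250), which is known from granulocytes and lymphatic endothelium, had 108, 111 and 174 CPM in UV2, against 30.3, 28.5 and 34.9 CPM in bEnd.3. UV2 replicate 3 was the highest library and all of UV2 lay above bEnd.3. Adgrg3 rose by more than 2-fold (log2 fold change 2.07, SE 0.19, adjusted p = 5.48e-05, and 0.000788 against 2-fold by glmTreat).

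Adgrg1 and Adgrg3 are neighbours on the same strand with 3.47 kb between them, and Adgrg5 lies 31.5 kb upstream of Adgrg1. Adgrg5 had 5 counts in the UV2 libraries together and 1 in those of bEnd.3, so of these adjacent genes it was near 0 in both lines. Per kb of coding sequence, Adgrg1 exceeded Adgrg3 by 3.54, 3.42 and 2.42 times in UV2 libraries and by 9.96, 9.88 and 7.99 times in bEnd.3 libraries. On chromosome 17, Adgrf1 ends 35.7 kb before Adgrf5 starts, on the same strand, and Adgrf2 lies 528 kb from Adgrf1, with Adgrf4 another 16.7 kb beyond Adgrf2. Adgrf2 had 7 counts in UV2 and 3 in bEnd.3, and Adgrf4 had 10 in UV2 and 3 in bEnd.3, beside the high Adgrf5.

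In subfamily A, Adgra3 (GPR125; chromosome 5, 49959956 to 50059006) was even within each line. It had 366, 395 and 364 CPM in UV2, against 286, 284 and 292 CPM in bEnd.3. The groups did not overlap and the gene rose slightly (log2 fold change 0.38, SE 0.06, adjusted p = 0.00109). Adgra2, the Wnt7 co-receptor (chromosome 8, 27085583 to 27123436), had 35.7, 29.4 and 30.2 CPM in UV2, against 34.4, 30.6 and 33.2 CPM in bEnd.3. The groups overlapped, and no difference passed the test (log2 fold change -0.04, SE 0.10, adjusted p = 0.718). Over the alternatives its log2 fold change ran from -0.12 to 0.01, the positive value without UV2 replicate 2.

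Adgre5 (CD97; chromosome 8, 83723251 to 83741326), a leukocyte receptor that binds CD55 and integrins, was lower in UV2. It had 13.7, 17.1 and 27.5 CPM in UV2, against 23.9, 46.9 and 58.3 CPM in bEnd.3. UV2 replicate 3 lay above bEnd.3 replicate 1, so the groups overlapped. Adgre5 fell (log2 fold change -1.15, SE 0.35, adjusted p = 0.0213). The call was lost without UV2 replicate 1 (adjusted p = 0.0721), UV2 replicate 2 (0.0735), bEnd.3 replicate 2 (0.0578) or bEnd.3 replicate 3 (0.0729), in a range of 0.000748 to 0.0735. The lowest value of this range came with the replicate number as a block (log2 fold change -1.12). Of its exon bases, 24.6% are shared with other genes, mainly Ddx39, a helicase gene read from the other strand. Whether counting used strand was not given in the sources used here, so the level of Adgre5 is uncertain. Ddx39 had 79.6 ± 5.71 CPM in UV2 and 66.6 ± 9.64 CPM in bEnd.3 (SD, n = 3 each) and was not called (adjusted p = 0.0736).

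**Figure D4:**
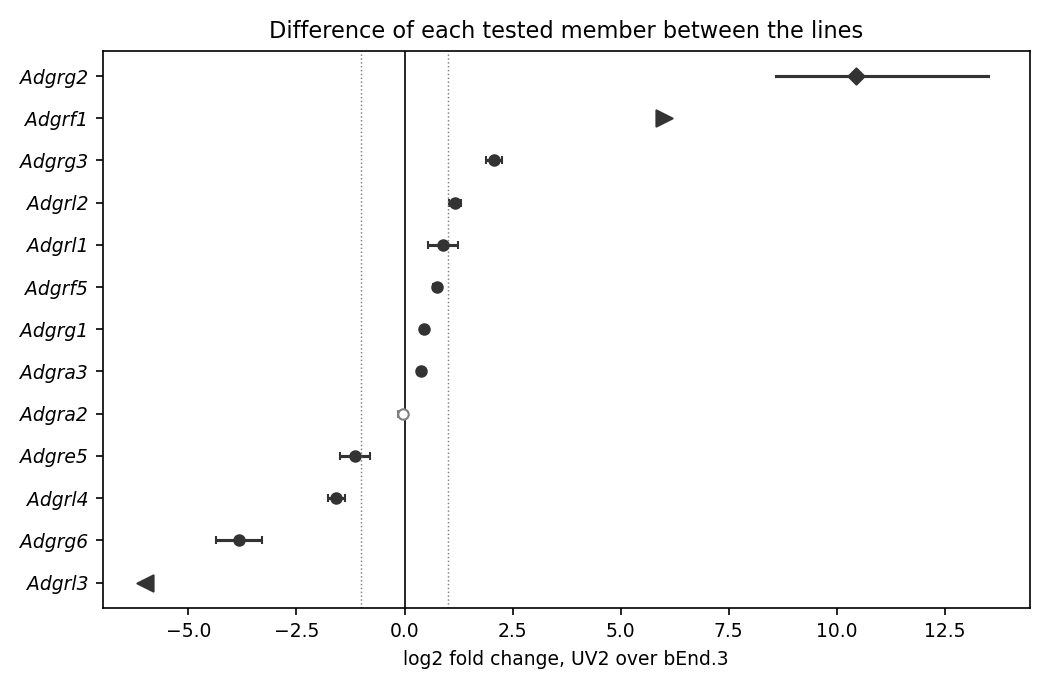
Log2 fold change of the 13 tested receptor genes, UV2 over bEnd.3. Circles are fitted values with SE (open where not called), the diamond is the ratio of Adgrg2 with its 95% counting interval, and triangles are bounds for Adgrf1 and Adgrl3, which had no count in a line; dotted lines mark 2-fold. Adgra2 sits at -0.04, and Adgrg2, Adgrf1, Adgrl3 and Adgrg6 lie farthest from 0.

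4 receptors were present almost only in 1 line. Adgrg2 (GPR64; chromosome X, 160390690 to 160498070), known from fluid handling in the male efferent ducts, had 945, 773 and 843 counts in UV2 and 2, 0 and 0 counts in bEnd.3. That is 39.9, 37.5 and 32.5 CPM in UV2, against 0.0897, 0 and 0 CPM in bEnd.3. The ratio of UV2 to bEnd.3 was 1391.5 (95% counting interval 385 to 11496, adjusted p = 4.07e-07). The fit put its log2 fold change at 10.19, and at 12.83 when bEnd.3 replicate 1, which holds both counts, was left out. Per kb of coding sequence it had 12.1 ± 1.25 CPM in UV2 (SD, n = 3). For Adgrg2 all 3 UV2 libraries lay above those of Adgra2, the next receptor in the order, at 7.92 ± 0.857 CPM per kb. Adgre5 had nearly the same mean, 7.92 ± 2.92 CPM per kb, and its range overlapped that of Adgrg2. The highest UV2 library of Adgre5 was at 11.2 and the lowest of Adgrg2 at 10.7 CPM per kb.

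Adgrf1 (GPR110; chromosome 17, 43270329 to 43324737), a receptor for the neural lipid synaptamide, had 80, 54 and 39 counts in UV2 and none in bEnd.3. Its level was 3.38, 2.62 and 1.504 CPM in the UV2 libraries, which exceeds bEnd.3 at least 63.6-fold (adjusted p = 0.000294). Adgrl3, the latrophilin that binds FLRT3, had no count in UV2 and 53, 100 and 53 counts in bEnd.3. Of its exon bases, 8.91% are shared with Gm16054 on the opposite strand, so its level is uncertain. The level of Adgrl3 in bEnd.3 was 2.38, 4.07 and 1.80 CPM, and it was at least 64.4-fold lower in UV2 (adjusted p = 0.000343). These bounds set the line without a count to 3 counts in its summed libraries, which is 0.0427 CPM in UV2 and 0.0393 CPM in bEnd.3, and intervals and floors cover counting error only. Adgrg6 (GPR126; chromosome 10, 14402583 to 14545659), which drives myelination by Schwann cells, had 6, 4 and 2 counts in UV2 and 28, 77 and 91 counts in bEnd.3. It was 0.175 ± 0.0897 CPM in UV2 and 2.49 ± 1.07 CPM in bEnd.3 (SD, n = 3 each; log2 fold change -3.83, SE 0.53, adjusted p = 0.000388). All 3 were low even where they were found: per kb of coding sequence Adgrf1 had 0.918 ± 0.346 CPM in UV2, and Adgrg6 and Adgrl3 had 0.697 ± 0.299 and 0.580 ± 0.249 CPM in bEnd.3 (SD, n = 3). Each of the 4 genes separated all UV2 libraries from all bEnd.3 libraries.

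Promoters of these 4 genes are shown because the genes were near 0 in a line and counted in the other. Each run is the 250 bases before the start in the RefSeq table of GRCm38.p6, 5′ to 3′ on the gene's strand, with CG dinucleotides in capitals. Where several starts are listed the farthest upstream was taken, and which start these cells use was not measured. In GENCODE vM21 Adgrl3 starts at 81020138 and Adgrg6, on the minus strand, at 14545659. By those starts the windows of Adgrl3 and Adgrg6 lie inside the gene and not before it.
Adgrg2, chrX:160390440-160390689, plus strand: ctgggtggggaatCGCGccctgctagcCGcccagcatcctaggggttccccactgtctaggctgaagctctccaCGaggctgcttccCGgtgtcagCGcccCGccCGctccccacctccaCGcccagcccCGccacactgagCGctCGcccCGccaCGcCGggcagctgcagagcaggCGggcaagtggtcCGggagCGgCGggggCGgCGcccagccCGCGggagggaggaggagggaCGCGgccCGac
Adgrf1, chr17:43270097-43270346, plus strand: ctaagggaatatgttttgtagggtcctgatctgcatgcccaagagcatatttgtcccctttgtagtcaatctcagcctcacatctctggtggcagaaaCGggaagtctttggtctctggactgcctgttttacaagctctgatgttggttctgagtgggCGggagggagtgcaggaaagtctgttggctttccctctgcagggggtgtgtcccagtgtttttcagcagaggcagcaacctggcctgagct
Adgrl3, chr5:81020321-81020570, plus strand: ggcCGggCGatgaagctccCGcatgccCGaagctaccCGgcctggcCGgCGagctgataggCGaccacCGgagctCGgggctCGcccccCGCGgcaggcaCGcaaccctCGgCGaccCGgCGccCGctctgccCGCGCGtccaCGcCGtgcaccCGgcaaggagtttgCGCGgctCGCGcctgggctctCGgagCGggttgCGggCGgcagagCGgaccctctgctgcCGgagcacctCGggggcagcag
Adgrg6, chr10:14545037-14545286, minus strand: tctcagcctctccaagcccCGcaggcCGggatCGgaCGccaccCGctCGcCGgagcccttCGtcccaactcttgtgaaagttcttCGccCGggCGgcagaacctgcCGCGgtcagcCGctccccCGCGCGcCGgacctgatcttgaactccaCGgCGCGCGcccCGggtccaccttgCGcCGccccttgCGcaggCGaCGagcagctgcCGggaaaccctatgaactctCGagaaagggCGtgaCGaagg
Adgrg2, Adgrl3 and Adgrg6 have 26, 36 and 32 CG in this window, numbers that 9.59%, 2.58% and 4.58% of the 32851 promoters in the table reach. Adgrf1 has 2, which 81.2% reach. The median promoter has 6. Both genes that were low in UV2 are CG-rich in these windows, which for both lie past the GENCODE start. Of the genes that were near 0 in bEnd.3, Adgrg2 is CG-rich and Adgrf1 is not. Of the 19 receptor genes with a RefSeq promoter, 10 have more CG than the median promoter. Among receptors near 0 in both lines the number ran from 1 in Adgrg7 to 35 in Adgrb2. A link between CG number and level was not tested.

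Promoters of Adgrf5 and Adgrl4, the receptors that lead the order in the lines, are shown with matches to an ETS core in capitals, since ETS factors such as Erg are central to endothelial transcription. The letters searched were AGGAAG and CGGAAG on both strands.
Adgrf5, chr17:43360181-43360430, plus strand: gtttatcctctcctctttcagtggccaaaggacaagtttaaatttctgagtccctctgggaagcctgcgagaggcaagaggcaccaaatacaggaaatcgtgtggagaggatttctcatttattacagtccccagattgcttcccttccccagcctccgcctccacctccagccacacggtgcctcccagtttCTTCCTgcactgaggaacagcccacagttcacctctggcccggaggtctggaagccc
Adgrl4, chr3:151437632-151437881, plus strand: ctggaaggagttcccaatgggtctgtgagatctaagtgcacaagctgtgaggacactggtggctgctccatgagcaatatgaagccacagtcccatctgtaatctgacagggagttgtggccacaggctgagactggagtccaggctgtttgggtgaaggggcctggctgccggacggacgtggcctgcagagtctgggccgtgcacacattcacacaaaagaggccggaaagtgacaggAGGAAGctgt
AGGAAG was found in 29.5% of all promoters and in 7 of the 19 receptor genes that have a promoter in the table, Adgrf5, Adgrg3, Adgrg5, Adgrg7, Adgrl1, Adgrl2 and Adgrl4. The other 7 receptor genes are Adgra2, Adgrb1, Adgrd1, Adgre1, Adgre5, Adgrf2 and Adgrf3. CGGAAG was found in 13.6% of all promoters and in 1 of the 19, Adgra3. A match is a description of the letters and not a binding site. Erg itself averaged 286 CPM in UV2 and 363 CPM in bEnd.3 (log2 fold change -0.35, adjusted p = 0.00976).

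The other 13 receptors did not pass the low-count filter. Adgrb3, Adgre1 and Adgrf3 had no count in any library. Adgre1 encodes F4/80, a defining surface marker of mouse macrophages. Of the macrophage and leukocyte markers above, Lyz2, Cd68 and Cd14 were higher in UV2 and Csf1r was not called. The source of these transcripts was not tested. The other 10 had at most 14 counts over the libraries of a line. Adgrb1 (BAI1, an engulfment receptor for phosphatidylserine) had 3 counts in UV2 and 1 in bEnd.3, and Adgrv1, a very large receptor of hair cells and retina, had 14 in UV2 and 10 in bEnd.3. Adgra1, Adgrb2 and Adgrg7 had 9, 5 and 4 counts in UV2 and none in bEnd.3, and with no filter Adgra1 passed the test (adjusted p = 0.0244) while Adgrb2 (0.0584) and Adgrg7 (0.0878) did not. Adgre4 had 2 counts in UV2 and 3 in bEnd.3, and Adgrd1 (GPR133) had none in UV2 and 1 in bEnd.3. At this depth differences of such genes were mostly not detectable.

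Known partners of these receptors were read from 8 lists, with the background of calls given above (33.9% higher and 33.3% lower). Wnt7b, Sox17, Tenm4, Nrxn2, Col3a1, C1ql4 and Gna14 would not have passed the low-count filter on the libraries of their lower line alone, so for them too a difference follows in part from having been tested, and the list counts include them. Of the subfamily C receptors, Celsr1, a planar cell polarity receptor, fell to 0.620 ± 0.331 CPM in UV2, against 5.12 ± 1.91 CPM in bEnd.3 (SD, n = 3 each; log2 fold change -3.01, SE 0.42, adjusted p = 0.000401). Celsr2 and Celsr3 were too low to test, with 5 and 22 counts in UV2 and 7 and 17 in bEnd.3.

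The list of Adgra2 partners in the Wnt7 co-receptor complex also holds downstream genes such as Ctnnb1. Of its 9 tested genes 5 were higher in UV2, 2 lower and 2 not called (median log2 fold change 0.35). Among all tested genes 67.1% were called, so nothing particular to the list is read from this count. Wnt7b, a Wnt7 ligand, had 123, 108 and 173 counts in UV2 and none in bEnd.3, at least 145-fold higher (adjusted p = 1.74e-05). Wnt7a had no count in any library. Reck, the partner of Adgra2 that binds the ligand, had 17.1 ± 1.16 CPM in UV2 and 13.4 ± 1.72 CPM in bEnd.3 (SD, n = 3 each; log2 fold change 0.35, SE 0.12, adjusted p = 0.0331). Its call was lost with the replicate number as a block (adjusted p = 0.0510), with total counts (0.0764), and without UV2 replicate 1 (0.0871), UV2 replicate 2 (0.0858), bEnd.3 replicate 1 (0.0685) or bEnd.3 replicate 2 (0.0538), in a range of 0.0272 to 0.0871. Fzd4, the frizzled receptor of the complex, fell to 58.3 ± 2.70 CPM in UV2, against 144.7 ± 10.5 CPM in bEnd.3 (SD, n = 3 each; log2 fold change -1.31, SE 0.08, adjusted p = 4.80e-06). With total counts, or without UV2 replicate 1, bEnd.3 replicate 1 or bEnd.3 replicate 2, 3 genes of this list were higher.

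Targets of beta-catenin were mostly near 0: 4 of 12 were tested, none was higher, 2 were lower and 2 not called (median log2 fold change -0.60). The count of higher genes by edgeR was also 0 at an unadjusted p under 0.05 and 0 by DESeq2 and limma-voom, and it was 1 with no filter. Sox17, an arterial transcription factor, fell to 0.324 ± 0.0911 CPM in UV2, against 59.9 ± 6.51 CPM in bEnd.3 (SD, n = 3 each; log2 fold change -7.49, SE 0.18, adjusted p = 8.90e-08). Znrf3, a negative regulator of frizzled receptors, also fell (log2 fold change -0.80, SE 0.18, adjusted p = 0.00462). Axin2, a common readout of the pathway, had 32 counts in UV2 and 11 in bEnd.3 and was not tested in the filtered table. Other untested genes of the list also had more counts in UV2: Tcf7 had 21 in UV2 and 9 in bEnd.3, Tnfrsf19 had 24 in UV2 and 15 in bEnd.3, and Rnf43 had 9 in UV2 and none in bEnd.3. No direction of the list as a whole is read from the 4 genes that were tested.

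Of the latrophilin ligands, 4 were tested, and 2 were higher and 2 lower in UV2 (median log2 fold change -0.30). Tenm4, a teneurin, had 77 counts in UV2 and 1 in bEnd.3, a ratio of 83.7 (95% counting interval 14.6 to 3347, adjusted p = 0.000117). Flrt2 and Flrt3, which bind latrophilins across cell contacts, had 50.3 ± 15.3 and 7.99 ± 1.64 CPM in UV2 and 537 ± 197 and 38.3 ± 18.6 CPM in bEnd.3 (SD, n = 3 each), and both fell (log2 fold changes -3.42 and -2.26, adjusted p = 6.81e-05 and 0.00128). Flrt3 and Nrxn2, a neurexin, were named after their values were seen, and Nrxn2 had 2.04 ± 0.254 CPM in UV2 and 0.629 ± 0.244 CPM in bEnd.3 (SD, n = 3 each; log2 fold change 1.67, SE 0.31, adjusted p = 0.00181). Set beside the receptors, Adgrl3 was also lower in UV2, and Adgrl1 and Adgrl2 were higher.

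Among matrix and surface ligands of subfamilies E and G, 5 of 12 tested genes were higher, 5 lower and 2 not called (median log2 fold change 0.07). Col3a1, the collagen III chain that binds Adgrg1, rose to 32.1 ± 16.6 CPM in UV2, against 0.954 ± 0.672 CPM in bEnd.3 (SD, n = 3 each; log2 fold change 5.13, SE 0.56, adjusted p = 0.000123). Prnp, the prion protein, a ligand of Adgrg6, fell to 254 ± 13.95 CPM in UV2, against 959.9 ± 36.0 CPM in bEnd.3 (log2 fold change -1.92, SE 0.07, adjusted p = 5.86e-07). Cd55, the ligand of Adgre5, had 41.2 ± 6.44 CPM in UV2 and 40.8 ± 19.3 CPM in bEnd.3 (SD, n = 3 each) and was not called, with a log2 fold change of 0.02 (SE 0.30, adjusted p = 0.959). Without bEnd.3 replicate 1 it was called higher (log2 fold change 0.47, adjusted p = 0.0244, in a range of 0.0244 to 0.964). Thy1, another partner of Adgre5, had no count.

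Ligands of subfamilies B and F and their engulfment effectors had 1 of 6 tested genes higher, 3 lower and 2 not called (median log2 fold change -0.39). Elmo1 and Elmo2, adaptors that link Adgrb1 to Rac, went apart: Elmo1 had 97.7 ± 3.60 CPM in UV2 and 60.2 ± 18.6 CPM in bEnd.3, and Elmo2 43.2 ± 2.35 CPM in UV2 and 75.6 ± 3.41 CPM in bEnd.3 (SD, n = 3 each). Elmo1 rose (by 0.70 on the log2 scale, SE 0.20, adjusted p = 0.0169), and its call was lost without UV2 replicate 2 (adjusted p = 0.0513, in a range of 0.00110 to 0.0513). Elmo2 fell (log2 fold change -0.81, SE 0.07, adjusted p = 3.83e-05).

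Downstream, 5 of 9 tested G protein alpha subunits were higher, 2 lower and 2 not called (median log2 fold change 0.39). Gna14, a subunit of the Gq class, rose to 6.45 ± 1.90 CPM in UV2, against 0.224 ± 0.125 CPM in bEnd.3 (SD, n = 3 each; log2 fold change 4.82, SE 0.40, adjusted p = 2.66e-05). Gna11 of the same class fell (-0.61 on the log2 scale, SE 0.06, adjusted p = 6.77e-05). Of arrestins and receptor kinases, 2 of 6 were higher, 1 lower and 3 not called (median log2 fold change -0.20), and 3 were lower without bEnd.3 replicate 1. Grk6 rose (by 0.55 on the log2 scale, SE 0.07, adjusted p = 0.000228), and the kinase Grk2, listed under its older symbol Adrbk1, fell (log2 fold change -0.41, SE 0.06, adjusted p = 0.000768).

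**Figure D5:**
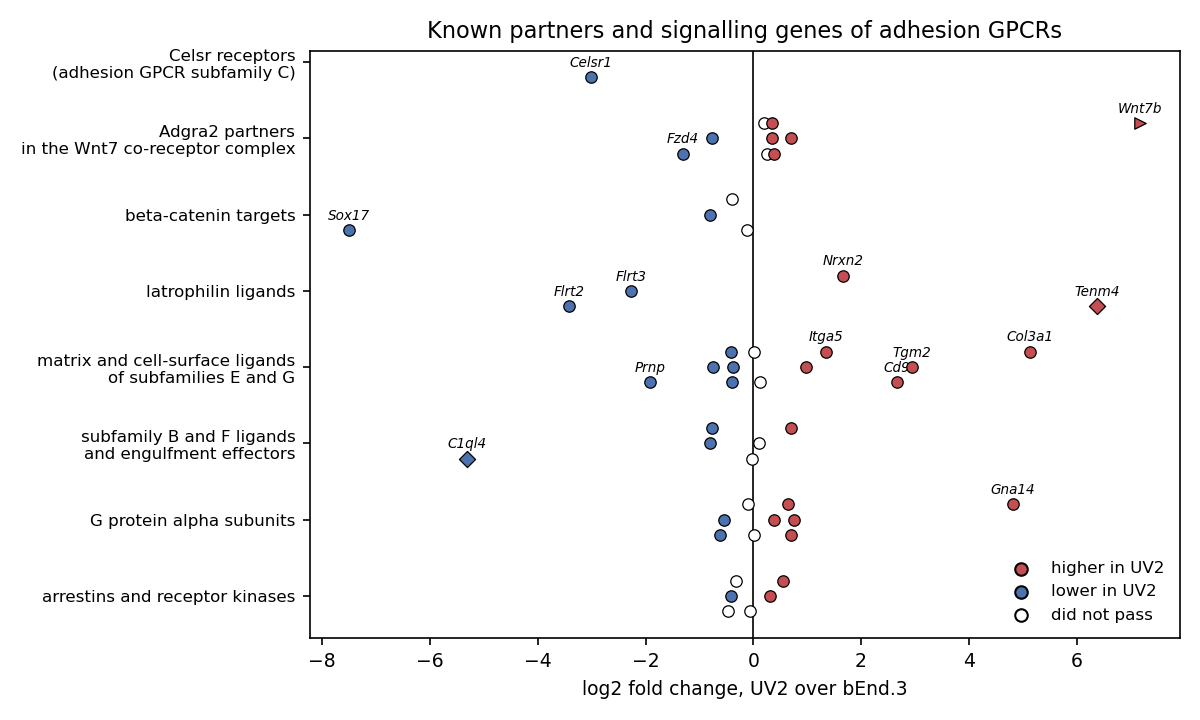
Log2 fold change, UV2 over bEnd.3, of the tested genes of 8 partner and signalling lists. Each symbol is a gene, coloured where called higher or lower and open where not called; the triangle is a bound (no count in bEnd.3) and diamonds are ratios where a line had 1 count. Wnt7b, Tenm4 and Col3a1 lie farthest to the right, and Sox17, C1ql4 and Flrt2 farthest to the left.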

How the data were processed

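The deposited table holds expected counts per gene symbol for 6 libraries, made by the authors and not normalized. Tools listed in the submitters' processing notes are Trim Galore, STAR and RSEM, with build mm10. Versions, annotation and strand setting: not given in the sources used here. Per the labels' protocols, libraries came from a stranded mRNA kit. Values were fractional (tolerance 1e-06) for 8.23% to 8.73% of the genes in a library and were rounded to whole counts. Genes were filtered with filterByExpr, scaled by TMM and fitted with edgeR 4.0.16 (R 4.3.3) with line as the only term. Alternatives used limma 3.58.1 and DESeq2 1.42.0. Positions and lengths came from GENCODE vM21 (GRCm38, the assembly of mm10), in which all 26 members were found by symbol; the coding length stands in for that of RefSeq proteins, which were not used here. Promoters came from RefSeq. Grk2 and Grk3 were matched through older symbols.

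The members, lists and tests were chosen with earlier results of these data known. All members called or at 1 CPM or more in a line were named, and of each list the called genes with the highest and the lowest change provided that its mean in the line where it is higher reaches 1 CPM (or both of the largest, where every call has the same sign), plus Reck, Fzd4, Wnt7a, Wnt7b, Cd55 and the Celsr genes. Replicates of a line differed by more than sampling noise (chi-square per degree of freedom 11.3 to 38.4), so no library was counted as a duplicate. The fitting steps were tested on simulated data with known changes. In those data most genes were left unchanged, unlike in these lines, so the fit was not tested where most genes differ. A ligand gene and a list of signalling genes are not reported here.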

Additional observations from a re-analysis of the deposited data

How the results depend on the processing

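The alternatives were DESeq2's size factors, library totals alone, every gene with a count, only genes of 1 CPM in 3 libraries, a replicate block, DESeq2, limma-voom, and each library left out in turn. In place of 12 receptors, 10 to 13 were called (13 with no filter, 11 with total counts), and in place of 6, 5 to 7 passed the test beyond 2-fold. Of 169 recomputed log2 fold changes of the 13 receptors, 159 kept their direction and their side of the threshold, 9 (of Adgre5 and Adgrl1) fell short of it, and 1 turned its sign: Adgra2, not called, ran from -0.12 without UV2 replicate 1 to 0.012 without UV2 replicate 2. Cd55, not called, turned to -0.043 with total counts, -0.10 without UV2 replicate 1, -0.11 without bEnd.3 replicate 2 and -0.21 without bEnd.3 replicate 3, and was 0.47 and called without bEnd.3 replicate 1.

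Of 325 recomputed counts, 9 moved by more than 1.5 times, all of them in the partner lists. Of 52 recomputed ranks of the receptors by level, 27 changed with no length correction or with the length of the whole transcript, and these are not listed. Higher genes in the Adgra2 partner list were 3 with total counts, and 3 to 6 without a library. Higher beta-catenin targets were 1 with no filter, higher latrophilin ligands 1 at 1 CPM in 3 libraries, and higher genes of the subfamily B and F list 2 with no filter and 0 to 1 without a library. Lower arrestins and kinases were 1 to 3 without a library. The cause was not tested.

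With the replicate block, 8682 genes were called in place of 8538, and the 12 receptor calls kept their number. Libraries of the same number had deviations correlated at 0.0854, 0.161 and 0.200, not all above 0.1, so the numbers were not taken to pair them, although each library correlated best with its own number. The length of the whole transcript as a scale was added after seeing the data. Depth limits the 13 receptors under the filter.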
